A study of Danio rerio with 6 samples.

Results

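Mitochondrial ribosomal proteins build the mitoribosome, the ribosome inside mitochondria, and 75 of their genes were followed in adult zebrafish whole brain. The genes were chosen by symbol: every Ensembl gene whose symbol begins with mrpl or mrps and a digit was taken, which gave 75 of the 23678 genes in the data. Of these, 47 carry an mrpl symbol (large subunit) and 28 an mrps symbol (small subunit). All 75 reached the minimum mean value of 1 that was set for testing. The lowest was mrpl58, at a mean of 98.2 in wild type and 68.9 in the mutant, so no gene lay near that minimum. Symbols are printed as the gene-name table gives them, and an entry in capitals is a zebrafish gene all the same.

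The brains came from fish homozygous for C246X, a CRISPR/Cas9 mutant allele of the nicotinic receptor gene chrna3, and from wild-type (WT) fish, both raised to adulthood. Polyadenylated RNA of whole brain was sequenced in 3 libraries per genotype. The labels do not say whether a library is 1 fish or a pool, whether the WT fish were siblings of the mutants, or whether more than 1 mutant line was used. The p-values therefore measure the spread between these libraries, which may be technical. The level of chrna3 itself overlapped between genotypes, with 102, 28.1 and 55.1 in WT and 59.8, 40.7 and 57.4 in C246X, and whether its sequence carries the allele cannot be read from these values. Each value is an estimated read number per gene divided by 1 factor per library, with library totals of 25655952 to 26794838. Each fold change is the C246X mean less the WT mean of log2(value + 1), from a limma fit over all 23104 genes tested. A gene passed when its p, adjusted after Benjamini and Hochberg, was under 0.05.

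The mitoribosome translates the messenger RNAs encoded by mitochondrial DNA, all of which specify subunits of the respiratory chain and ATP synthase. Its own proteins are encoded in the nucleus, made in the cytosol and imported. Some have counterparts in bacterial ribosomes and the others are found only in mitochondria. Neurons depend heavily on the respiratory chain, and defects in human mitoribosomal genes cause multisystem disease that often includes the brain. The positions and roles given below come from structures and studies of mammalian and bacterial ribosomes.

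Mitochondrial ribosomal protein genes as a group had nearly the same summed level in both genotypes. Summed over the 75 genes, the 3 WT libraries held 43420, 41725 and 39778, and the 3 C246X libraries held 42073, 40324 and 41580. The sums overlapped, and the mean sum in C246X was 0.992 times that in WT. The median log2 fold change of the 75 genes was −0.0082, beside −0.0077 over all genes tested. The middle of the group was narrow, with quartiles at −0.11 and 0.09 against −0.31 and 0.24 over all genes. This was not particular to the group. Quartiles were −0.24 and −0.11 for cytosolic ribosomal protein genes, and −0.24 and −0.033 for nuclear respiratory chain genes. The members also lay at a higher level, with a median WT mean of 450 against 226 over all genes tested. Of the 75 fold changes, 35 were above 0, beside 49.0% of all genes tested. No gene of the group passed with a log2 fold change of 1 or more in size, beside 7.97% of all genes.

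In the fit, 6 of the 75 genes rose and 7 fell in C246X brains, and 62 did not pass. That is 17.3% of the group, beside 22.5% of all genes tested (11.1% higher and 11.4% lower). Values were fully separated by genotype in 38.7% of the group (11 genes above and 18 below in C246X), beside 41.4% of all genes (20.7% each way). The share that passed was thus no larger than over all genes. Of the 13 genes that passed, MRPL47, MRPS23, MRPS5 and mrpl30 kept their call under all 14 other settings tried, and the other 9 lost it under at least 1. The direction of none of the 13 changed under these settings. In the RefSeq gene order, MRPL47, MRPS23, mrpl9, mrpl34 and MRPS16 overlap the span of another gene. These are whole gene spans in another assembly than that of the alignment, and shared exons were not checked. The strand used in counting is not given in the sources used here, so reads of these genes may be mixed with those of their partners. Leaving out C246X replicate 1, 2 or 3 left 3 genes higher and 2 lower each time. Without WT replicates 1, 2 and 3 in turn, 5, 4 and 4 genes were higher and 3, 4 and 3 lower. The counts without WT replicate 1 include genes outside the 13. Of the 13, only MRPL47, MRPS23, MRPL44, MRPS16, MRPS5 and mrpl30 kept their call there.

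**Figure D1:**
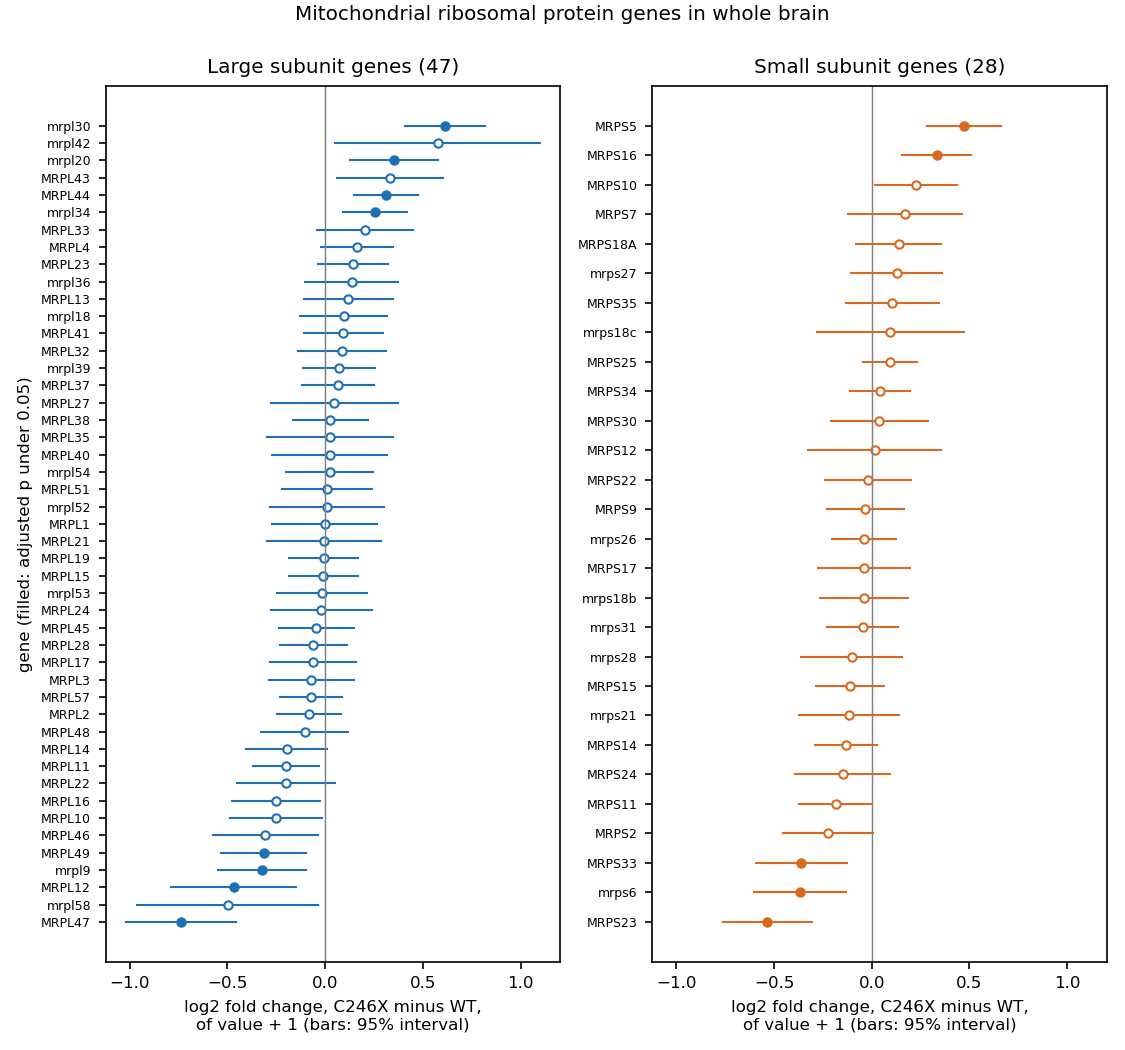
Log2 fold change (C246X minus WT, of value + 1) of each of the 47 large and 28 small subunit genes, with 95% intervals from limma. Filled points passed at an adjusted p under 0.05. The points run from −0.74 (MRPL47) to 0.61 (mrpl30), and most intervals cover 0.

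The fit also bounded the size of the changes. The 95% interval of the log2 fold change lay wholly between −0.5 and 0.5, a factor of 1.41, for 60 of the 75 genes, beside 37.6% of all genes tested. It lay between −1 and 1 for 73 of the 75, beside 62.7% of all genes. The exceptions at that limit were MRPL47 and mrpl42. The standard error of the group was smaller than that of most genes, with a median of 0.098 against 0.15. Its median was 0.068 for cytosolic ribosomal protein genes and 0.078 for nuclear respiratory chain genes.

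MRPL47 (ENSDARG00000075743), the mitochondrial counterpart of a bacterial protein at the exit of the peptide tunnel, fell furthest. Its values were 499, 397 and 397 in WT and 234, 264 and 274 in C246X. Every C246X library lay below every WT library. The log2 fold change was −0.74 (SE 0.12, adjusted p = 0.0047), and the adjusted p was at most 0.023 with any library left out.

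MRPS23 (ENSDARG00000033973), a small subunit protein found only in mitochondria, had the next largest fall. It had 303, 338 and 330 in WT and 213, 228 and 229 in C246X, without overlap. The log2 fold change was −0.53 (SE 0.10, adjusted p = 0.0077), and at most 0.033 with any library left out.

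MRPL12 (ENSDARG00000038768) is the mobile stalk protein that recruits translation factors, and it has also been reported to bind the mitochondrial RNA polymerase. Its values were 1278.5, 1454 and 974 in WT and 958.5, 821 and 870 in C246X. The groups did not overlap, but WT replicate 3 lay close to C246X replicate 1. The log2 fold change was −0.47 (SE 0.14, adjusted p = 0.045). The call was lost without WT replicate 1 (adjusted p = 0.103), WT replicate 2 (0.106) or C246X replicates 1, 2 or 3 (0.0804, 0.139 and 0.12), and with a pseudocount of 0.1 (0.0517).

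The small subunit genes mrps6 and MRPS33 fell by similar amounts. The gene mrps6 (ENSDARG00000039543), the counterpart of a bacterial platform protein, had 761, 608 and 620 in WT and 515, 488 and 532 in C246X. MRPS33 (ENSDARG00000020015), a mitochondrion-specific protein of the small subunit head, had 667, 535 and 549 in WT and 465, 434 and 457 in C246X. In both genes WT replicate 1 was the highest library, and the groups did not overlap. The log2 fold changes were −0.37 (SE 0.10, adjusted p = 0.036) and −0.36 (SE 0.10, adjusted p = 0.037). Both calls were lost without WT replicates 1 or 3 or any C246X library, with adjusted p-values up to 0.116 for mrps6 and 0.118 for MRPS33.

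The large subunit genes mrpl9 and MRPL49 completed the 7 that fell. The gene mrpl9 (ENSDARG00000063249), of bacterial type, had 348, 366 and 325 in WT and 287, 285 and 259 in C246X. MRPL49 (ENSDARG00000075422), found only in mitochondria, had 353, 333 and 314 in WT and 263, 272 and 267 in C246X. Neither gene's groups overlapped. The log2 fold changes were −0.32 (SE 0.098, adjusted p = 0.048) and −0.32 (SE 0.094, adjusted p = 0.045). Each call was lost with any single library left out, with adjusted p-values of 0.0638 to 0.151 for mrpl9 and 0.06 to 0.117 for MRPL49, and under a replicate block (0.0686 and 0.0838).

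Among the genes that rose, mrpl30 (ENSDARG00000069850) moved furthest. It encodes a bacterial-type protein of the large subunit. Its values were 432, 401 and 384 in WT and 571, 650 and 645 in C246X. All C246X libraries were above all WT libraries, with a log2 fold change of 0.61 (SE 0.089, adjusted p = 0.0026). The adjusted p was at most 0.016 with any library left out.

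MRPS5 (ENSDARG00000062209), the counterpart of a bacterial protein at the entry of the messenger RNA channel, had 508, 554 and 499 in WT and 775, 711 and 683 in C246X. The groups were well apart, with a log2 fold change of 0.47 (SE 0.082, adjusted p = 0.0057), and at most 0.027 with any library left out. The bacterial-type small subunit gene MRPS16 (ENSDARG00000098972) had 360.4, 367 and 363 in WT and 460.2, 465 and 448 in C246X. Its WT libraries lay within a few reads of each other, and its log2 fold change was 0.33 (SE 0.077, adjusted p = 0.018). That call was lost without C246X replicates 1, 2 or 3 (adjusted p = 0.0611, 0.0716 and 0.0547).

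Of the other large subunit genes that rose, MRPL44 (ENSDARG00000094277), a mitochondrion-specific protein with a ribonuclease III fold, had 586, 638 and 626 in WT and 795, 761 and 739 in C246X. The groups did not overlap, and the log2 fold change was 0.31 (SE 0.072, adjusted p = 0.018). The bacterial-type gene mrpl20 (ENSDARG00000090462) had 382, 358 and 399 in WT and 442, 485 and 531 in C246X. The bacterial-type gene mrpl34 (ENSDARG00000092954) had 799, 798 and 798 in WT and 1009, 883 and 971 in C246X. Both were higher in every C246X library, with log2 fold changes of 0.35 (SE 0.097, adjusted p = 0.035) and 0.26 (SE 0.072, adjusted p = 0.036). MRPL44 lost its call without C246X replicates 1 or 2 (adjusted p = 0.0691 and 0.0617). The gene mrpl20 lost it without C246X replicates 2 or 3 or any WT library (adjusted p up to 0.124) and under total-count scaling (0.0524). The gene mrpl34 lost it without C246X replicates 1 or 3 or any WT library (adjusted p up to 0.121) and under a replicate block (0.0593).

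**Figure D2:**
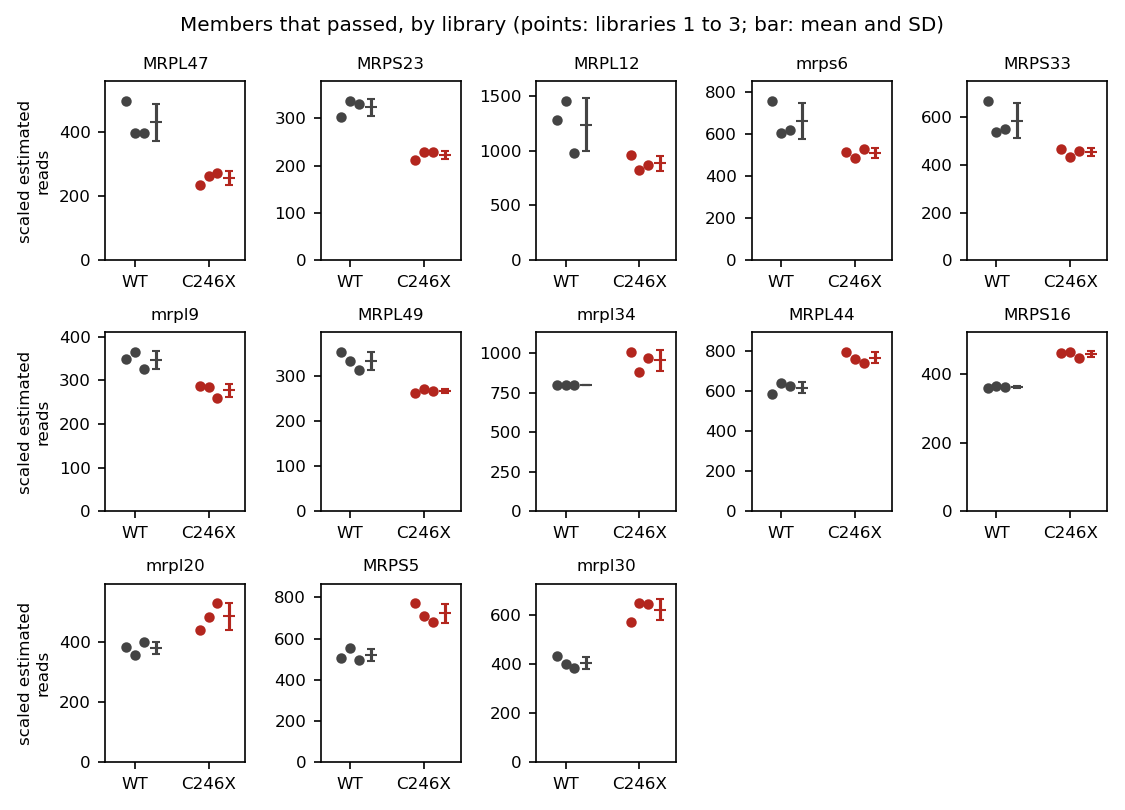
Value of each of the 13 genes that passed, in scaled estimated reads, in the 3 WT (grey) and 3 C246X (red) libraries, with the mean and SD beside them and axes starting at 0. In each of the 13 genes the C246X libraries lie wholly on 1 side of the WT libraries, as in 41.4% of all genes tested. The 13 were picked by the fit on these same values, so the separation is no further support.

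Similar shares of both subunits passed. Of 47 large subunit genes 4 rose and 4 fell (17%), and of 28 small subunit genes 2 rose and 3 fell (17.9%), both shares below the 22.5% of all genes. The median log2 fold change was −0.002 for the large and −0.036 for the small subunit. Without C246X replicate 1, 2 or 3, 1 large and 1 small subunit gene were lower and 2 large and 1 small were higher. The summed value of the large subunit genes over that of the small subunit genes was 1.58, 1.59 and 1.56 in WT and 1.60, 1.55 and 1.61 in C246X. The ranges overlapped, with means of 1.58 ± 0.0176 and 1.59 ± 0.0351 (SD, n = 3), and this ratio was not tested.

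A second summary of the same balance moved in a different way. The median log2 value of the large subunit genes minus that of the small subunit genes was −0.0072, −0.16 and −0.053 in WT and 0.11, 0.062 and 0.066 in C246X. These ranges did not overlap. Each median rests on the few genes in the middle of its subunit, and the difference was not tested.

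Symbols do not always give a protein's place. MRPS30 (ENSDARG00000104111) and MRPS18A carry small subunit names but sit in the large subunit by structure. MRPS30 had 501, 399 and 409 in WT and 425, 445 and 468 in C246X, and MRPS18A had 656, 522 and 573 in WT and 645, 625 and 647 in C246X. Both overlapped between genotypes, with log2 fold changes of 0.039 (adjusted p = 0.83) and 0.14 (adjusted p = 0.34). The sign of MRPS30 turned without WT replicate 2 (−0.021) or WT replicate 3 (−0.0037). Counting both genes with the large subunit raised the ratio of sums to a mean of 1.75 in WT and 1.77 in C246X and left the numbers of genes that rose and fell as they were. The other relatives of MRPS18A are mrps18b and mrps18c, which stay in the small subunit. The gene mrps18b had 379, 408 and 387 in WT and 357, 363 and 424 in C246X, and mrps18c had 201, 247 and 168 in WT and 192, 234 and 227 in C246X. Neither passed (adjusted p = 0.80 and 0.72), and their signs turned when C246X replicate 1 (0.0037) and WT replicate 3 (−0.040) were left out, respectively.

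By origin, 5 of 46 bacterial-type genes rose and 4 fell (19.6%), with a median log2 fold change of −0.014. Of 29 genes found only in mitochondria 1 rose and 3 fell (13.8%), with a median of 0.011. Both shares lie below the 22.5% of all genes tested. The gene that rose in the second set was MRPL44, and those that fell were MRPS23, MRPS33 and MRPL49. Over the libraries left out in turn, the bacterial-type genes that rose numbered 2 to 3 and those that fell 1 to 2. Of the mitochondrion-specific genes, 1 fell when WT replicate 3 or any C246X library was left out. In that set 0 rose without C246X replicates 1 or 2, and 2 rose without WT replicate 1 or under a replicate block. MRPS18A was counted as bacterial-type and its relative mrps18b as mitochondrion-specific, and other assignments were not tried. Neither gene passed, so the numbers that rose and fell do not rest on this choice, while the shares and medians do.

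Members were also grouped by their place in the ribosome, a grouping drawn up after their values had been seen. The stalk, where translation factors dock, is built from MRPL10 and MRPL12 on a base that includes MRPL11. All 3 had C246X libraries wholly below the WT libraries, as 20.7% of all genes did. Of the 3 only MRPL12 passed, beside 22.5% of all genes tested. MRPL10 had 287, 304 and 305 in WT and 274, 236 and 243 in C246X (log2 fold change −0.25, adjusted p = 0.118). MRPL11 had 1066, 1071 and 994 in WT and 904, 853 and 970.1 in C246X (log2 fold change −0.20, adjusted p = 0.086).

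In the other regions at most 1 gene passed each. The shares that passed ran from 0% to 33.3% per region, beside 22.5% of all genes tested. Around the exit of the peptide tunnel, 1 of 6 genes fell (MRPL47) and 0 rose, with a median of −0.054. There 5 of 6 fold changes were below 0, while 49.0% of those of all genes were above 0. MRPL45, which ties the ribosome to the inner membrane, had 497, 484 and 436 in WT and 452, 466 and 453 in C246X, which overlap. None of 6 genes of the central protuberance passed (median 0.025), although MRPL46 had 391, 524 and 435 in WT and 354, 379 and 352 in C246X (adjusted p = 0.099). MRPL46 did pass in a limma fit with a library left out (adjusted p = 0.040). In the head of the small subunit 1 of 7 genes fell (MRPS33) and in its platform 1 of 5 (mrps6). Of the 3 genes at the entry of the messenger RNA channel and the decoding site, MRPS5 rose. MRPS24, also at the entry, had 498, 398 and 440 in WT and 422, 377 and 401 in C246X, and the decoding protein gene MRPS12 had 542, 519.5 and 394 in WT and 568.5, 463 and 434 in C246X. Both overlapped, and the sign of MRPS12 turned with single libraries left out (log2 fold change −0.13 to 0.10).

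Some members with sizeable fold changes did not pass. The gene mrpl42, mitochondrion-specific, had 233, 172 and 117 in WT and 257, 235 and 257 in C246X. All C246X libraries lay above all WT libraries, but the WT coefficient of variation was 33.5%, the highest of the group (log2 fold change 0.58, 95% interval 0.052 to 1.098, adjusted p = 0.107). The gene mrpl58, whose product releases peptides from stalled ribosomes, had 101, 114 and 80.5 in WT and 61.9, 80.5 and 64.5 in C246X (log2 fold change −0.50, adjusted p = 0.114). MRPL43 had 574, 450.3 and 544 in WT and 738, 603 and 630.1 in C246X (log2 fold change 0.33, adjusted p = 0.079). Of these 3, mrpl42 and MRPL43 passed under 1 other setting each.

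Spread between libraries was smaller for the group than over all genes tested, which had a lower median level. The median coefficient of variation over the 75 genes was 6.75% in WT and 5.66% in C246X, beside 12.8% and 9.66% over all genes tested. It was 4.38% and 6.77% for cytosolic ribosomal protein genes, and 8.14% and 4.41% for nuclear respiratory chain genes. Like the median over all genes tested, the coefficient of the members was larger in WT than in C246X, here for 50 of the 75 genes. It exceeded 15% for 6 genes in WT, namely mrpl58, MRPL12, MRPS12, mrps18c, MRPS7 and mrpl42, and for 0 in C246X. Highest and lowest values were unevenly spread over libraries. Among the 6 libraries, WT replicate 1 held the highest value of 22 genes, and WT replicate 3 the lowest value of 22 genes and the highest of only 2. These counts were not made over all genes tested, so they cannot be called particular to the group.

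Proteins of the mitoribosome that carry other names were followed beside the members. None of the 5 genes passed, beside 22.5% of all genes tested. All 5 had negative fold changes, with a median of −0.14, while 49.0% of those of all genes were above 0. The largest was chchd1, a small subunit protein, with 539.7, 399.9 and 440.6 in WT and 370.4, 385 and 374 in C246X (log2 fold change −0.28, adjusted p = 0.127). DAP3, a GTP-binding protein of the small subunit head, had 785, 681 and 652 in WT and 607, 661 and 611 in C246X (−0.17, adjusted p = 0.21). AURKAIP1, GADD45GIP1 and ptcd3 had log2 fold changes of −0.14, −0.093 and −0.036 (adjusted p = 0.25, 0.48 and 0.79). The sign of ptcd3 turned without WT replicate 1 (0.024) or C246X replicate 2 (0.0014).

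Among 15 factors of mitochondrial translation, 2 fell and 0 rose (13.3%, beside 22.5% of all genes). One was taco1, needed in mammals to translate a cytochrome oxidase subunit, with 694, 577 and 609 in WT. In C246X it is listed at 0 in each of the 3 libraries, so no fold is given. GFM1, the elongation factor that moves the mitoribosome along the messenger, had 1599, 1727 and 1496 in WT and 1190, 1131 and 1189 in C246X. Its groups did not overlap, and its log2 fold change was −0.46 (SE 0.070, adjusted p = 0.0033). The other 13 factors did not pass, among them the elongation factor gene TUFM with 2616, 2552 and 2669 in WT and 2795, 2567 and 2676 in C246X (adjusted p = 0.69).

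Among enzymes that charge mitochondrial transfer RNAs, 3 of 19 genes rose and 1 fell, a share of 21.1% that is near the 22.5% of all genes. Of the 19 fold changes 15 were above 0, beside 49.0% over all genes, and the median was 0.22. EARS2, for glutamate, rose from 474, 441 and 534 to 746, 683 and 915. LARS2, for leucine, rose from 221, 217 and 213 to 282, 282 and 272, and AARS2, for alanine, named after its values were seen, from 365, 358 and 302 to 517, 449 and 417. GATC, a subunit of the amidotransferase that makes glutaminyl-tRNA, fell from 221, 195 and 213 to 104, 110 and 124 (log2 fold change −0.89, adjusted p = 0.0029). In these 4 genes the groups did not overlap, and 47.4% of the 19 had no overlap, beside 41.4% of all genes. With WT replicate 3, C246X replicate 1 or C246X replicate 2 left out, 1 enzyme rose.

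Of 26 genes that assemble the mitoribosome, 2 rose and 0 fell (7.69%, beside 22.5% of all genes), with a median of 0.026. C1QBP, a matrix chaperone that binds ribosomal RNA, rose from 1151, 1103 and 1154 to 1317.5, 1307 and 1340 (adjusted p = 0.029). The pseudouridine synthase gene trub2 rose from 238, 255 and 245 to 312, 293 and 320.3 (adjusted p = 0.043). Neither passed when WT replicate 2 or any C246X library was left out, nor under a replicate block. One of them passed without WT replicates 1 or 3 and under total-count scaling.

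Of 22 genes of mitochondrial transcription, RNA processing and DNA replication, 2 rose and 2 fell (18.2%, beside 22.5% of all genes). POLG, the mitochondrial DNA polymerase, fell from 615, 1046 and 1065 to 278, 226 and 525, with wide spread in both genotypes (log2 fold change −1.45, SE 0.32, adjusted p = 0.015). SLIRP, an RNA stabilising protein, fell from 884, 809.9 and 816 to 701, 628 and 718. The transcription factor gene tfb2m rose from 642, 579 and 648 to 772, 767 and 726, and the RNA helicase gene SUPV3L1 from 319, 314 and 312 to 409.6, 386 and 376. None of the 4 passed with WT replicate 3, C246X replicate 1 or C246X replicate 2 left out. Without C246X replicate 3 POLG alone passed, neither rise passed without WT replicate 2, and SLIRP was lost without WT replicate 1. Under a replicate block neither rise passed (adjusted p = 0.062 for tfb2m and 0.0678 for SUPV3L1). Among 10 regulators of nuclear genes for mitochondria, tfb2m rose and NRF1 fell (20%, near the share of all genes). NRF1, a transcription factor for such genes in mammals, had 1522, 1570 and 1440 in WT and 1261, 1219 and 1211 in C246X (log2 fold change −0.30, SE 0.061, adjusted p = 0.011). Of the 10 regulators, 2 fell without WT replicate 1 and under a replicate block. The 13 messenger RNAs encoded by mitochondrial DNA, which the mitoribosome translates, did not pass in the limma fit. With WT replicate 1 left out 1 of them rose, and with WT replicate 2 left out 1 fell. Their summed value was 1609130, 1231530 and 1372810 in WT and 1542680, 1439830 and 1548750 in C246X, which overlap.

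**Figure D3:**
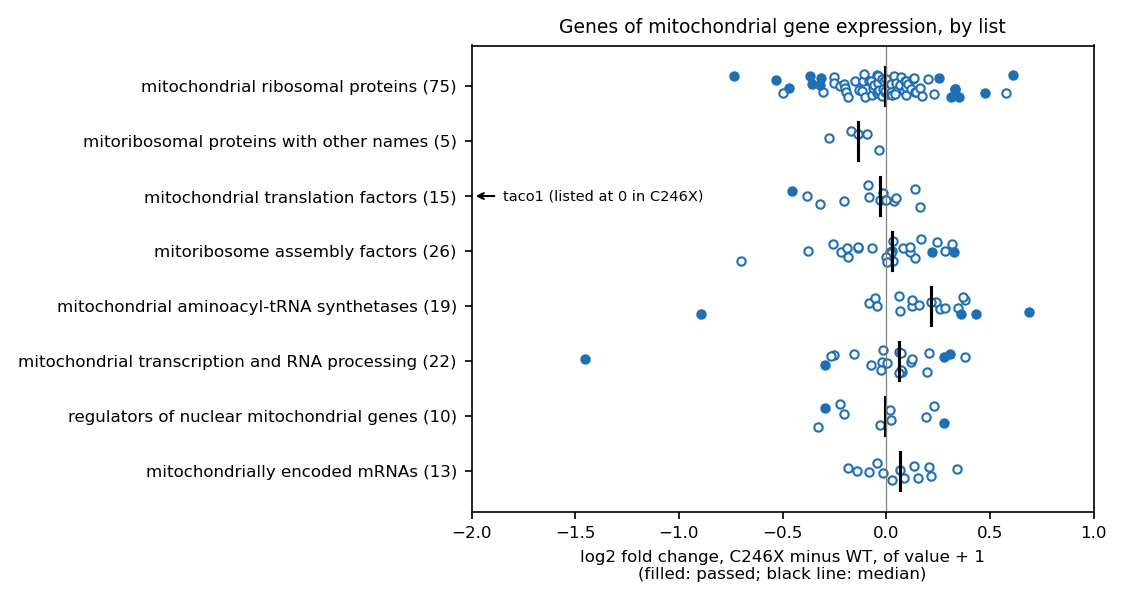
Log2 fold change (C246X minus WT, of value + 1) of each tested gene in 8 lists of mitochondrial gene expression, with filled points for genes that passed and a black line at each list's median. The mitochondrial ribosomal protein genes centre on −0.0082. The arrow marks taco1, listed at 0 in C246X.

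Ribosomal proteins of the cytosol and nuclear-encoded respiratory chain subunits had lower medians than the mitochondrial ribosomal proteins. Of 79 cytosolic ribosomal protein genes 2 rose and 25 fell (34.2%, beside 22.5% of all genes), with a median of −0.19. Negative fold changes numbered 73 of the 79, against 40 of the 75 mitochondrial ones and 11777 of the 23104 genes tested. The stalk protein gene RPLP1 rose from 4407, 4269 and 4674 to 5360, 5764 and 6155, and RPL21 from 5166, 5147 and 5546 to 5888, 6395 and 6690. In both genes the genotypes were fully apart. With C246X replicate 1, C246X replicate 2 or WT replicate 3 left out, 6, 5 and 8 of the cytosolic genes fell, and 1 rose with C246X replicates 2 or 3 or WT replicates 1 or 2 left out. Per 1000 reads of cytosolic ribosomal proteins, the mitochondrial ones had 90.2, 85.2 and 79.4 in WT and 103, 91.3 and 89.5 in C246X, and these ranges overlap. Of 92 nuclear respiratory chain genes tested 2 rose and 21 fell, with a median of −0.12 and 74 negative fold changes. Their called share of 25% is near the 22.5% of all genes, but falls outnumbered rises. Of all genes tested, 11.1% rose and 11.4% fell. The count moved with single libraries: 13 fell with WT replicate 1 left out, 8 with C246X replicate 2 left out and 11 with C246X replicate 3 left out. The 2 that rose became 4 with WT replicate 1 left out, 0 with C246X replicate 1 left out, and 1 with WT replicates 2 or 3 or C246X replicate 3 left out. The complex I subunit gene NDUFB2 fell from 2171, 2103 and 1989 to 606, 651 and 608, and the ATP synthase gene atp5mf from 4825, 3796 and 4355 to 2362, 2355 and 2430. The complex II gene SDHA rose from 19161, 19397 and 16493 to 26144, 22429 and 23275, and the complex III gene uqcrc2a from 1776, 1667 and 1842 to 2303, 1967 and 2120. Another gene for the same complex III subunit, UQCRC2 (ENSDARG00000071691), passed in the opposite direction. It fell from a mean of 3692 in WT to 3099 in C246X (log2 fold change −0.25, adjusted p = 0.040). The difference between the mitochondrial ribosomal group and these groups was not tested.

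**Figure D4:**
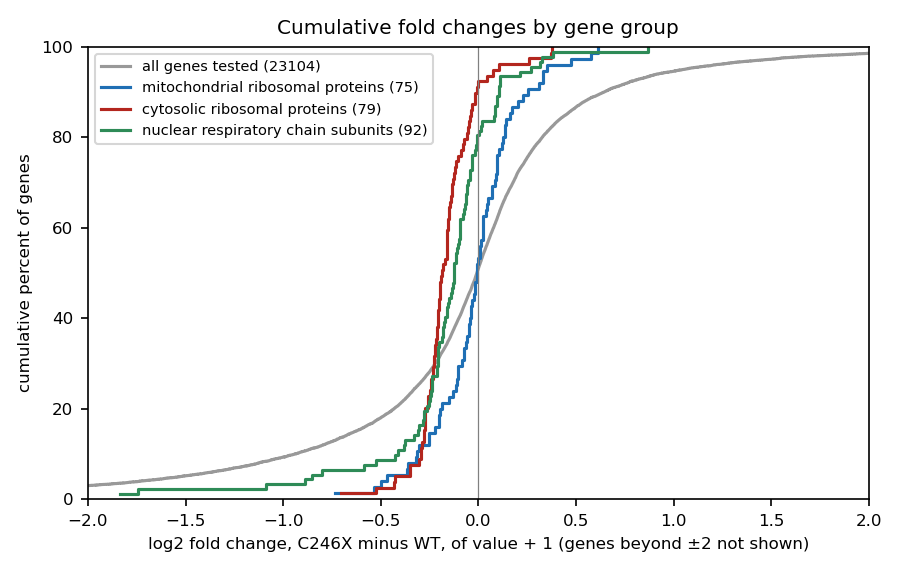
Cumulative percent of genes by log2 fold change (C246X minus WT, of value + 1) for all genes tested and 3 gene groups. The curve of the 75 mitochondrial ribosomal protein genes crosses its midpoint at −0.0082. It is steeper than that of all genes, as are the curves of the other gene groups. The cytosolic ribosomal protein genes lie to the left with a median of −0.19.

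**Figure D5:**
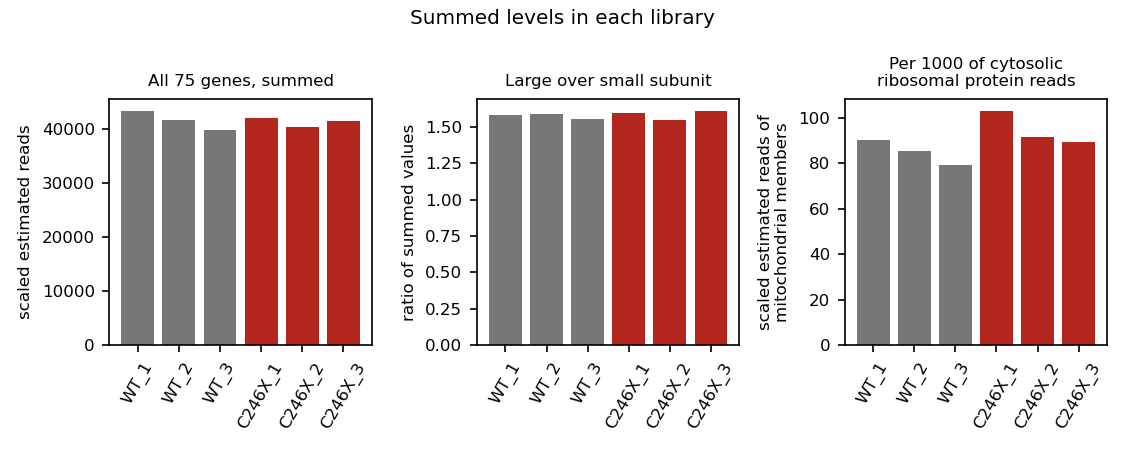
Bars give, for each library, the summed value of the 75 genes, the ratio of summed large to summed small subunit values, and the members' reads per 1000 reads of cytosolic ribosomal proteins. In each panel the WT (grey) and C246X (red) libraries overlap.

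Markers of some cell types differed between the genotypes, and whole-brain RNA does not tell fewer cells of a type from less RNA per cell. Of 14 neuron markers 1 rose and 1 fell (14.3%, beside 22.5% of all genes tested). Their summed values were 343150 to 384930 in WT and 364920 to 386390 in C246X. Microglia and macrophage markers were lower, with 11 of 11 genes passing and sums of 20810 to 22059 in WT and 9508 to 12564 in C246X. Of 9 oligodendrocyte markers 6 fell and 1 rose, a share of 77.8% (302680 to 374450 in WT, 216500 to 245180 in C246X). Of 8 photoreceptor markers 6 fell, a share of 75% (5907 to 19803 in WT, 286 to 4626 in C246X). Of 11 radial glia markers 1 rose and 4 fell (45.5%). Of 7 skeletal muscle markers 1 rose and 1 fell (28.6%), and 0 of 7 endothelial and 0 of 5 erythrocyte markers passed. No marker list had a gene at 0 in all libraries, and the part of these differences in the values of the mitochondrial ribosomal protein genes was not tested.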

How the data were processed

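STAR and the build GRCz11 are named in the submitters' processing notes, and paired reads of 150 bp in the labels. Not given in the sources used here: how reads were counted and scaled. The signal deposited by the authors is, from the values, an estimated read number divided by 1 factor per library: 95.0% to 95.2% of values under 1000 reads were whole multiples, within 0.03, of 1 step per library, and undoing the steps gave totals of 24222238 to 26659958. Libraries were assigned by genotype and replicate number per the labels.

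Genes with a mean of at least 1 (23104 of 23678) were fitted on log2(value + 1) (limma 3.58.1, R 4.3.3) with genotype as the only term, a mean-variance trend, and p adjusted by Benjamini-Hochberg (threshold 0.05). On simulated C246X against WT data (23031 genes, dispersion 0.02) the fit recovered 96% of 2-fold and 100% of 4-fold changes. It called 0.0263% of unchanged genes. Changed genes were drawn from those with a mean of at least 50. Changes of less than 2-fold, the size of all those of the members, were not simulated. The members, lists and origins were chosen with earlier results of these data known, and the regions after the members' values had been seen. Lists were matched by symbol. The named genes are all members that passed, members of textbook note, mitoribosomal proteins with other names, and up to 2 genes per direction and list with the smallest p, of which some cytosolic ribosomal protein genes are not reported here; part of that rule needed protein lengths and was not applied, so levels are not compared between genes. Members shown to describe a region or a wide spread (MRPL10, MRPL11, MRPL45, MRPL46, MRPS24, MRPS12, mrpl42, MRPL43, and the factors TUFM and GFM2) fall outside it and were chosen after their values were seen. The same holds for UQCRC2, tomm20a, VDAC1 and VDAC2, which are given beside related genes. Alternatives were scaling by total count, by upper quartile or by recomputed median of ratios, no filter, a filter at 1 CPM in 3 libraries, a pseudocount of 0.1, limma-voom on the estimated reads (the planned count test was not used, since not all values are whole), a replicate block and each library left out. Gene order came from RefSeq (GRCz12tu), whose coordinates are not printed.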

Additional observations from a re-analysis of the deposited data

How the results depend on the processing

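Over all genes, 5207 passed, 4764 to 5221 with every library kept, and 2988 to 4835 with 1 library left out, the lowest without C246X replicate 1. The higher members (6) numbered 5 to 6 with every library kept and 3 to 5 with 1 left out, and the lower members (7) 5 to 7 and 2 to 4. Large subunit genes that rose (4) numbered 2 to 3 and that fell (4) 1 to 2 with 1 library left out, and small subunit genes 1 to 2 and 1 to 3. Leaving out a library also shrinks the group it belongs to, and the part of this in the lower counts was not tested. The median log2 fold change of the members stayed between −0.046 and 0.019, of the large subunit between −0.037 and 0.035 and of the small between −0.06 and 0.0039. The ratio of summed large to small subunit values ranged over 1.57 to 1.59 in WT and 1.57 to 1.61 in C246X with 1 library left out, and was 1.75 and 1.77 by structure, an assignment applied to the ratio after the data were seen. With the replicate number as a block, 6 members rose and 5 fell, 2 of the latter in the large subunit. The labels do not say whether libraries of the same number were paired. Same-numbered libraries had correlations of deviations of 0.0734, 0.0475 and 0.0554, and each library correlated best with its own number. The deviations were taken from the mean of each genotype, so the correlations are tied to each other. All were small, and pairing cannot be read from them. The sign turned with 1 library left out for 23 of the 62 members that did not pass. Among the named genes, log2 fold changes then ranged from −0.12 to 0.0037 for mrps18b (ENSDARG00000007065), −0.021 to 0.14 for MRPS30 (ENSDARG00000104111), −0.040 to 0.24 for mrps18c (ENSDARG00000069624) and −0.068 to 0.024 for ptcd3 (ENSDARG00000103856). Total-count scaling moved the median of all genes to −0.031. No member shares its symbol with another gene, so leaving such members out changes nothing. Gene spans overlap in the RefSeq table for 23 of the 75 members, 5 of them among the 13 that passed. Strand use in counting is not given in the sources used here, and shared exons were not checked. Reads of those genes and their partners may therefore be mixed where they overlap. Library totals overlapped between the genotypes.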

Other observations

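In the gene order of the RefSeq table, none of the 75 members lies on the chromosome that carries chrna3. MRPL47 overlaps ndufb5, a subunit gene of respiratory complex I, whose mean was 1697 in WT and 1355 in C246X (log2 fold change −0.33, adjusted p = 0.046). On the other side of MRPL47, actl6a did not pass, at means of 747 and 643 for WT and C246X (adjusted p = 0.06). Next to mrpl30, txndc9 rose (means of 1433 and 1860, log2 fold change 0.38, adjusted p = 0.0043) and zgc:162944 fell (1435 and 1101, −0.38, adjusted p = 0.018). Next to MRPL49, faub, which encodes a ubiquitin-like protein fused to a ribosomal protein, fell from a mean of 437 to 310.1 (−0.49, adjusted p = 0.0073). Next to MRPS33, the kinase gene braf rose from 1671 to 2039 (0.29, adjusted p = 0.022). These neighbours were looked up for the members that passed, after their values were seen. Of 16 tested neighbours 5 passed (31.2%, beside 22.5% of all genes) and 11 did not.

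Markers of mitochondrial mass went both ways, with 2 of 24 higher and 2 lower (16.7%, beside 22.5% of all genes) and a median log2 fold change of 0.0053. The outer membrane channel gene VDAC3 fell from 7881, 7170 and 6499 to 4957, 4088 and 4352 (log2 fold change −0.69, adjusted p = 0.0018), and the import pore gene TOMM40 fell by 0.27 (adjusted p = 0.027). The import receptor gene TOMM20 rose from 2288, 2315 and 2351 to 2713, 2825 and 2827 (0.27, adjusted p = 0.0087), and the chaperonin gene HSPD1 by 0.17 (adjusted p = 0.04). The related genes tomm20a, VDAC1 and VDAC2 did not pass (adjusted p = 0.83, 0.86 and 0.97). Their log2 fold changes were 0.021, −0.017 and −0.0055. TOMM40 and HSPD1 lost their calls in several fits with a library left out (adjusted p up to 0.0978 and 0.13).

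GFM2, the factor that recycles mitoribosomes after termination, took 2 levels that did not follow genotype. Its values were 402, 839 and 878 in WT and 871, 845 and 443 in C246X.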
